A study of Rattus norvegicus with 3 samples.

Results

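A set of 10 genes of the cornified envelope and the epidermal barrier was examined in FRSK cells, keratinocytes of a rat line that was started from fetal skin. They are Ivl, Sprr1a, Sprr3, Cnfn, Sbsn, Tgm1, Tgm3, Cst6, Spink5 and Casp14. The genes were selected by gene symbol, and all 10 were found among the 15037 named genes of the array. The series holds 3 Affymetrix whole-transcript arrays, with 1 array for FRSK cells given Met-enkephalin (Met-ENK), 1 for FRSK cells given the β-endorphin fragment β-END(1-9) and 1 for unstimulated FRSK cells, the control. Each peptide was applied at 100 nM for 24 h once the cells had attached to the dish, and all cells grew in serum-containing DMEM. The sources used here do not say whether control cells were given vehicle or how long they were kept. Met-ENK is an opioid peptide of 5 residues. The fragment β-END(1-9) starts with the same 5 residues. The comparisons ask which genes of keratinocytes differ after treatment with each peptide. With 1 array per group no test between groups exists, each difference below is one between single cultures with no replicate check. FRSK cells stand for keratinocytes as 1 established line grown in dishes.

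The cornified envelope is the protein shell that replaces the plasma membrane when keratinocytes of the upper epidermis die. Scaffold proteins such as involucrin are laid down first, small proline-rich proteins and others are added, and transglutaminases join them through bonds between glutamine and lysine residues. Protease inhibitors set when the crosslinking enzymes are activated and when the dead cells are shed. In skin these genes are switched on as keratinocytes leave the basal layer, and the genes of basal keratinocytes are switched off.

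Values are log2 signals, so that a difference of 1 is 2-fold. The signal of each gene was set against the 23 probe sets on the array that measure background, which ran from 2.51 to 7.57 with a median of 6.19 and held the same values on all 3 arrays. The threshold for calling a gene higher or lower was 1.5-fold, which is 0.58 in log2 units. Signals of different probe sets do not measure relative amounts of different mRNAs, so the genes are compared with background and between arrays only. Median log2 signals over the named genes were 6.41 on the Met-ENK array, 6.42 on the β-END(1-9) array and 6.44 on the control array. All 11 measured basal keratinocyte markers lay above the background range on the 3 arrays, among them Krt14 with 16.61 with Met-ENK, 16.63 with β-END(1-9) and 16.70 in control. Of the suprabasal markers, 2 were measured, Krt1 and Krt2, and neither passed the background range. Markers of other cell types lay above it on all arrays for 2 of 9 fibroblast genes (Col3a1 and Col1a1), 1 of 5 melanocyte genes (Mitf), 2 of 6 immune cell genes (Cd74 and Cd14), 0 of 6 endothelial and 0 of 8 muscle genes.

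Of the 10 envelope and barrier genes, 2 lay above the background range, Cst6 and Tgm1, and the other 8 lay within it on every array. The 8 genes ranged from 2.89 to 6.10 on the Met-ENK array, from 3.08 to 6.12 on the β-END(1-9) array and from 3.19 to 6.12 on the control array, and none of the 8 exceeded the background median. From such signals the presence of a transcript cannot be read. The only gene of the 10 with a readable signal and a difference past 1.5-fold was Cst6, which was lower with both peptides than in control.

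**Figure D1:**
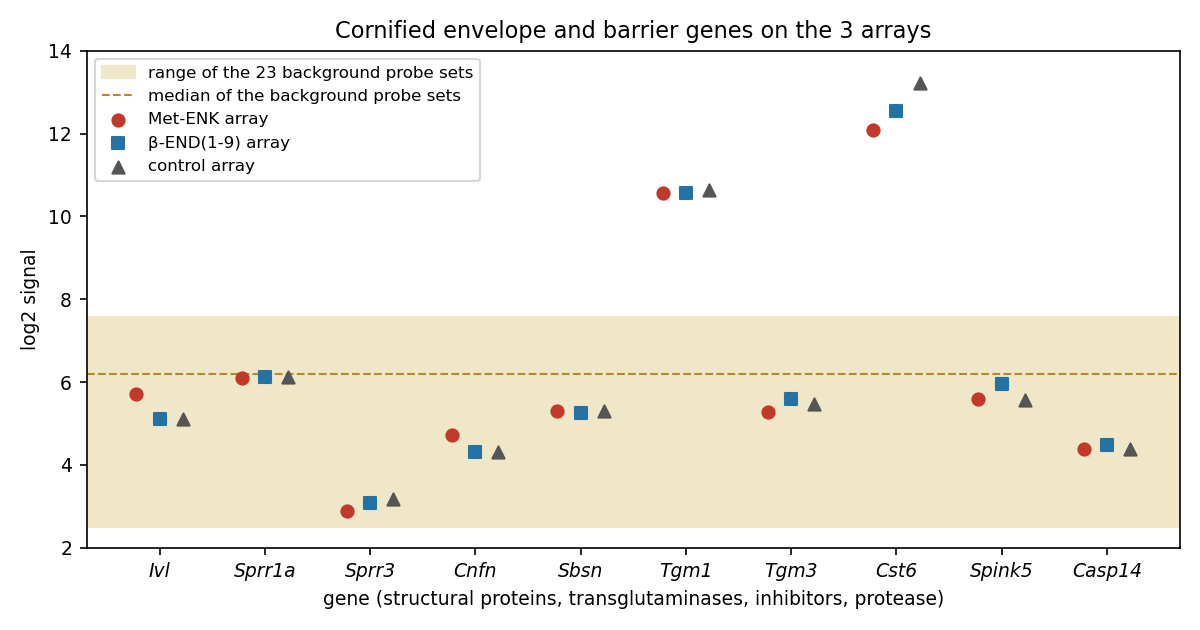
Log2 signal of each gene on the Met-ENK (circles), β-END(1-9) (squares) and control (triangles) arrays, 1 array per group; the band spans the 23 background probe sets (2.51 to 7.57) and the dashed line their median (6.19). Cst6 and Tgm1 lie above the band on all 3 arrays, and the other 8 genes lie within it.

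Promoter letters are shown for a gene above background, Tgm1, and a gene at background, Sprr1a, to give the reader the regulatory sequence beside the signal; both were chosen after the motifs had been counted. The sequences are those of RefSeq (assembly GRCr8), from 250 bases before to 50 after the annotated start, on the minus strand in both cases, at chr15:33174218-33174517 for Tgm1 and chr2:180752576-180752875 for Sprr1a. Capitals mark matches on either strand to the AP-1 motif TGANTCA, the TATA box TATAAA, the E-box CACGTG or the GC box GGGCGG. None of these matches overlap each other in the sequences shown.
Tgm1: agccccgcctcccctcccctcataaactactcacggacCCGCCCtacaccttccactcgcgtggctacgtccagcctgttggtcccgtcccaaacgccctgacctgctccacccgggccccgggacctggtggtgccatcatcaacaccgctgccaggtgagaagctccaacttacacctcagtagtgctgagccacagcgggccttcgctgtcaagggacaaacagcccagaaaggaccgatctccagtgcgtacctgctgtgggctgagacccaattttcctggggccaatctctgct
Sprr1a: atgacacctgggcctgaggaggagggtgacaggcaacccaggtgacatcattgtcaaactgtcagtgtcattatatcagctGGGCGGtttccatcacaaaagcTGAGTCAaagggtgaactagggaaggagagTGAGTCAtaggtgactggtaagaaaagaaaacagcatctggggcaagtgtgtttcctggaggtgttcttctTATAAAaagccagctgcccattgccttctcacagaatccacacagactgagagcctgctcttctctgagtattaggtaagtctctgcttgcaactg
The Sprr1a window held 2 AP-1 matches starting at positions -147 and -117, 1 TATA box at -46 and 1 GC box at -169, where positions count back from the annotated start. The Tgm1 window held 1 GC box at -212 and neither an AP-1 match nor a TATA box. Promoter windows were matched for 8 of the 10 genes, all but Cst6 and Sprr3. Of these 8, 1 held an AP-1 match (Sprr1a), 3 a TATA box (Tgm3, Sprr1a and Spink5), 3 a GC box (Tgm1, Sprr1a and Cnfn) and 0 an E-box. Among 33469 windows of the same length, 7.33% held the AP-1 motif, 14.2% the TATA box, 33.1% the GC box and 6.42% the E-box. A match describes the letters only.

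Among the scaffold and structural proteins, Ivl was the one with a difference past 1.5-fold, at signals within the background range. Ivl, which encodes involucrin, the glutamine-rich scaffold of the envelope, had a log2 signal of 5.72 with Met-ENK, against 5.11 in control. On the β-END(1-9) array Ivl had 5.11, exactly the control value. With Met-ENK, Ivl was therefore 0.61 above the value shared by the other arrays, and all 3 signals were below the background median. After quantile normalization this difference was 0.55 and did not pass 1.5-fold.

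Sprr1a and Sprr3 encode small proline-rich proteins that act as crosslinked bridges in the envelope. Sprr1a had 6.10 with Met-ENK, 6.12 with β-END(1-9) and 6.12 in control, so the 3 arrays were within 0.02 of each other. Sprr3 had 2.89 with Met-ENK, 3.08 with β-END(1-9) and 3.19 in control, near the lowest of the background probe sets, so that Met-ENK minus control was -0.30 and β-END(1-9) minus control -0.11. Neither gene passed 1.5-fold in any comparison. Sprr3, Sprr1a and Ivl lie in that order in RefSeq, with only Sprr4 between them.

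Cnfn encodes cornifelin, a small protein of the envelope, and Sbsn encodes suprabasin, a secreted protein of the suprabasal layers that transglutaminases can crosslink. Cnfn had 4.74 with Met-ENK, 4.31 with β-END(1-9) and 4.32 in control, differences from control of 0.41 and -0.01. Sbsn had 5.31 with Met-ENK, 5.25 with β-END(1-9) and 5.31 in control. Cnfn was thus higher on the Met-ENK array by less than 1.5-fold, and the Sbsn signals lay within 0.07 of each other.

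Neither Tgm1 nor Tgm3, the transglutaminases among the 10 genes, showed a difference past 1.5-fold. Tgm1, the membrane-anchored enzyme that crosslinks the envelope and attaches lipids to it, had 10.56 with Met-ENK, 10.56 with β-END(1-9) and 10.65 in control. Its signal was thereby 20.8 times the background median with either peptide and 22.0 times in control. The signals of Tgm1 on the peptide arrays were exactly equal, so its difference from control was -0.08 with either peptide. Both differences share the control array. Tgm3, a soluble enzyme that is activated by proteolytic cleavage, had 5.28 with Met-ENK, 5.59 with β-END(1-9) and 5.48 in control, with differences from control of -0.20 and 0.11. Of the 6 measured genes of the transglutaminase family, Tgm1 alone lay above the background range. F13a1, the gene of the clotting factor XIII A chain, was the 1 family gene past 1.5-fold, 0.67 higher with β-END(1-9) than in control at background level. In that comparison 2.64% of all named genes were at least 1.5-fold higher. Tgm2, the widely expressed tissue transglutaminase, came closest to the upper end of the background range, at 7.08 with Met-ENK, 7.47 with β-END(1-9) and 7.07 in control.

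Cst6 encodes cystatin M/E, an inhibitor of the cysteine proteases legumain and cathepsin L. In mice, loss of the gene leads to disturbed cornification and a failing skin barrier. Cst6 had a log2 signal of 12.10 with Met-ENK, 12.55 with β-END(1-9) and 13.23 in control. The control array was the highest and the Met-ENK array the lowest, and all 3 signals lay far above the background range, at 60.2, 82.6 and 131.7 times the background median in that order of arrays. The difference from control was -1.13 with Met-ENK, a ratio of 0.457, and -0.67 with β-END(1-9), a ratio of 0.627. Between the peptides, Met-ENK minus β-END(1-9) was -0.46 for Cst6, a ratio of 0.729 that did not reach 1.5-fold. After quantile normalization the β-END(1-9) difference was -0.576, just short of 1.5-fold, and the Met-ENK difference was -1.09. Fewer cells expressing a gene and less RNA per cell cannot be told apart in such bulk samples. Both differences share the single control array.

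Across the 10 genes, the Met-ENK array had 1 gene at least 1.5-fold lower than control (Cst6) and 1 at least 1.5-fold higher (Ivl). The same thresholds were passed by 4.21% of all named genes in the lower and 2.98% in the higher direction. The median difference of the 10 genes was -0.01, against 0.00 over all named genes. The β-END(1-9) array had 1 of the 10 genes at least 1.5-fold lower (Cst6) and 0 higher, against 1.97% and 2.64% of all named genes, and the median of the 10 was also -0.01, against 0.00. Between the peptides, 1 of the 10 genes was at least 1.5-fold higher with Met-ENK (Ivl) and 0 were lower, against 2.51% and 3.05% of named genes. The median here was -0.06, against 0.00. Each of these counts rests on a single gene.

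**Figure D2:**
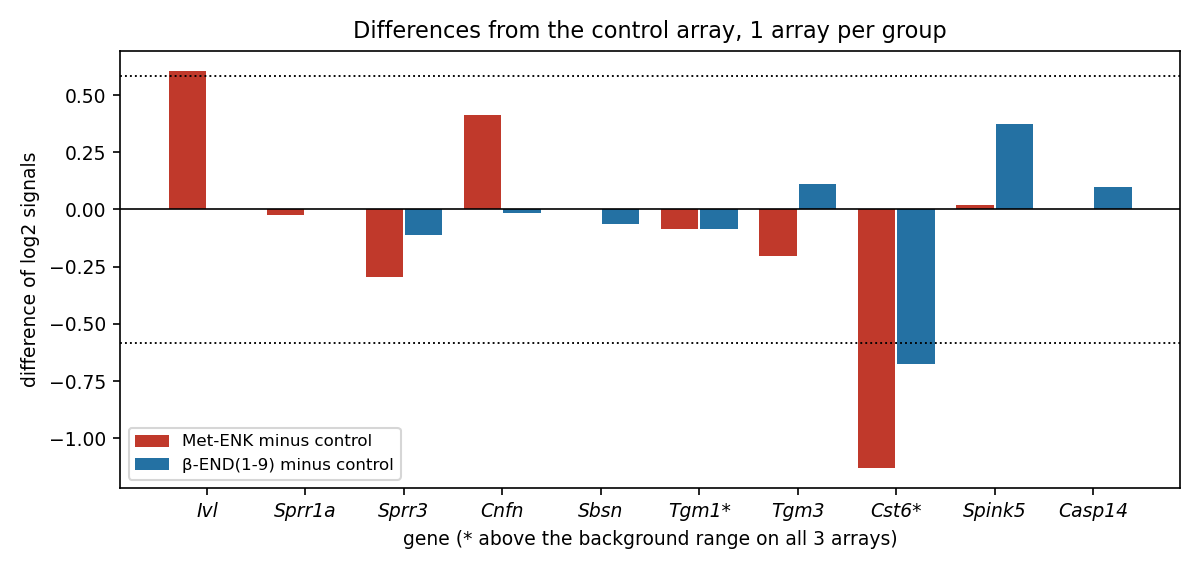
Differences of log2 signals from the control array for the 10 genes, with Met-ENK (red) left of β-END(1-9) (blue), 1 array per group and no error bars because there are no replicates; dotted lines mark 1.5-fold. Cst6, at -1.13 and -0.67, passes the lower line in both, and Ivl, at 0.61 with Met-ENK, passes the upper line.

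The 2 called genes were each set beside other genes of like signal. Ivl lay with the 8593 named genes that never exceeded the highest background probe set, of which 4.88% were at least 1.5-fold higher with Met-ENK than in control, and it ranked 408 from the highest among all named genes. Cst6 had a mean log2 signal of 12.63 over the 3 arrays. Among the 1560 named genes with a mean of at least 12, a limit chosen after the values were seen, 6.60% passed 1.5-fold in the lower direction for Met-ENK minus control and 0.256% for β-END(1-9) minus control. In this group Cst6 had the fourth-lowest difference with Met-ENK and the second-lowest with β-END(1-9), and it was the 1 gene of 1560 (0.0641%) past 1.5-fold lower with both. Over all named genes 0.858% were past 1.5-fold lower with both, and over genes at or above the median signal 0.811%, in comparisons that share the control array. The other genes of the group past 1.5-fold lower with β-END(1-9) were the isoprenoid enzyme gene Idi1 (-0.70), the kinase gene Nlk (-0.63) and the G protein gene Gnaq (-0.60), which differed from control by 0.14, -0.19 and -0.17 with Met-ENK. Nlk (-0.54), Gnaq (-0.53) and Cst6 were short of 1.5-fold with β-END(1-9) after quantile normalization. With loess scaling Nlk (-0.55) and Gnaq (-0.52) were also short. Gnaq was short as well with median centring (-0.57) and with a linear trend along genomic span removed (-0.55). With limits of 11 and 10 in place of 12, 5 of 2492 and 9 of 3579 genes were past 1.5-fold lower with both.

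**Figure D3:**
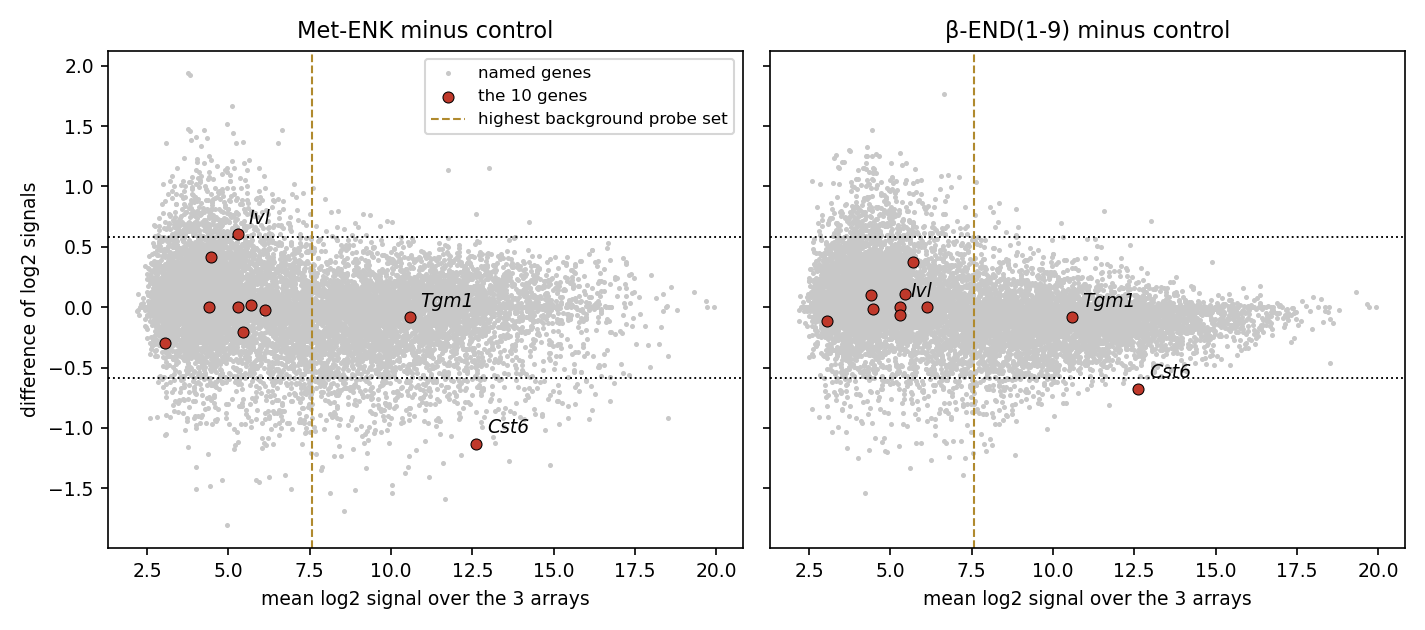
Difference of log2 signals from control against the mean log2 signal over the 3 arrays for the 15037 named genes (grey) and the 10 envelope and barrier genes (red), with Met-ENK left and β-END(1-9) right; dotted lines mark 1.5-fold and the dashed line the highest background probe set (7.57). Cst6 lies below the main cloud of strong signals in both panels, whereas Ivl lies among the widely spread genes at background level.

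Cst6 is a short gene, with a genomic span of 1.71 kb, and short genes were more often lower on the Met-ENK array. Among genes with a mean signal at or above the median of named genes, 16.6% of those in the shortest quintile by span were at least 1.5-fold lower with Met-ENK, against 6.02% of all such genes. With β-END(1-9) these shares were 2.73% and 2.27%. Among the 169 named genes that matched Cst6 in both respects, with a mean of at least 12 and a span in the shortest quintile, 40 (23.7%) passed 1.5-fold in the lower direction for Met-ENK minus control and 1 (0.592%), Cst6 itself, for β-END(1-9) minus control. A linear trend along span was fitted over all named genes and removed. The Cst6 difference was then -1.10 for Met-ENK minus control and -0.69 for β-END(1-9) minus control. That line also covers genes at background level, so it need not follow span among the stronger signals. In the shortest quintile at or above the median signal, the median difference was -0.11 with Met-ENK. Whether span accounts for the Cst6 difference was not tested. The genes whose pair of differences lay closest to that of Cst6, by Euclidean distance over the 2 differences and among genes at or above the median signal, were Mpc1 (-1.11 with Met-ENK and -0.68 with β-END(1-9)), Pttg1 (-1.12 and -0.64), Emc4 (-1.05 and -0.60), Ppdpf (-1.23 and -0.74) and Gemin8 (-1.23 and -0.77). Mpc1 encodes a subunit of the mitochondrial pyruvate carrier, and Pttg1 encodes securin. This likeness rests on 3 arrays and a shared control.

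The proteases held by cystatin M/E were read out well above background and did not reach 1.5-fold. Lgmn, the gene of legumain, had 9.24 with Met-ENK, 8.83 with β-END(1-9) and 8.98 in control, differences from control of 0.27 and -0.15. Ctsl, the gene of cathepsin L, had 12.53 with Met-ENK, 12.90 with β-END(1-9) and 12.99 in control, differences of -0.46 and -0.09. Ctsb, the gene of the related cathepsin B, had 15.99 with Met-ENK, 15.72 with β-END(1-9) and 16.02 in control. Lgmn was thus on the opposite side of control from Cst6 on the Met-ENK array, by less than 1.5-fold, and Ctsl on the same side.

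Other cystatin genes were looked at after the Cst6 values were seen. Of 17 measured genes of the family, 3 lay above the background range on all arrays, Cst6, Cst3 and Cstb. Cst3, the gene of the secreted cystatin C, had 10.80 with Met-ENK, 10.97 with β-END(1-9) and 11.39 in control, differences of -0.59 and -0.42. Cstb, the gene of the intracellular cystatin B, had 10.10 with Met-ENK, 10.70 with β-END(1-9) and 10.64 in control, differences of -0.54 and 0.06. Between the peptides, Met-ENK minus β-END(1-9) was -0.60 for Cstb. Csta, the gene of cystatin A, an inhibitor that is itself built into the envelope, had 6.94, 7.32 and 7.54 on the same arrays, at the upper end of the background range, and differed from control by -0.60 and -0.22. Each of these was lowest on the Met-ENK array, and Cst3 and Cstb, with spans of 4.06 and 2.04 kb, are short genes like Cst6. Of all 17, 3 were at least 1.5-fold lower with Met-ENK and 1 higher (Stfa3l1, at background level), against 4.21% and 2.98% of named genes. With β-END(1-9) 2 were lower, Cst6 and Cst12 (-0.65, at background level), and 0 higher, against 1.97% and 2.64%. Cst3 and Csta fell short of 1.5-fold with each array centred on its median (-0.56 and -0.57) and under quantile and loess scaling, and Cst3 also with the span trend removed (-0.57).

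Spink5 encodes LEKTI, the inhibitor of the kallikreins that cut the junctions between dead cells. Spink5 had 5.59 with Met-ENK, 5.95 with β-END(1-9) and 5.57 in control, so that the β-END(1-9) array was 0.37 higher than control, at signals below the background median. Of the proteases in its cascade, Klk7 had 5.41 on each of the 3 arrays, whereas St14, the gene of matriptase, lay above the background range with 10.36 with Met-ENK, 10.27 with β-END(1-9) and 10.30 in control. Klk5 is not analysed here. Casp14 encodes a caspase of the cornifying layers that takes part in the breakdown of filaggrin. Casp14 had 4.39 with Met-ENK, 4.48 with β-END(1-9) and 4.39 in control, with the Met-ENK value exactly equal to control. Neither Spink5 nor Casp14 passed 1.5-fold in any comparison.

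Exactly equal signals were common on these arrays. Of the named genes, 26.9% had the same value with Met-ENK and in control, 29.7% with β-END(1-9) and in control, and 26.8% on the peptide arrays. In the 10 genes this held for Casp14 with Met-ENK and control, for Ivl and Sprr1a with β-END(1-9) and control, and for Tgm1 between the peptides. A difference of exactly 0 is thus an ordinary value in these data.

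Further proteins of the envelope and cornified layer were measured for 13 of 41 listed symbols, and 3 of the 13 lay above the background range on all arrays, Ppl, Cstb and Evpl. Ppl and Evpl encode periplakin and envoplakin, plakins laid down early in envelope assembly. Ppl had 13.61 with Met-ENK, 13.53 with β-END(1-9) and 13.61 in control, and Evpl had 8.90, 8.90 and 9.15 on the same arrays. Neither passed 1.5-fold. With Met-ENK, 1 of the 13 genes was at least 1.5-fold higher than control and 1 lower, against 2.98% and 4.21% of all named genes. The higher one was Lce1f, a late cornified envelope protein, with 7.56 with Met-ENK, 7.00 with β-END(1-9) and 6.76 in control, just inside the background range, and the lower one was Csta. With β-END(1-9) the counts were 0 and 0, against 2.64% and 1.97%. Cstb was the 1 gene past 1.5-fold between the peptides, lower with Met-ENK, against 3.05% of all named genes. With the span trend removed, Cstb was short of 1.5-fold (-0.56) and Lce1f past it (0.61). The median differences from control were 0.00 for Met-ENK and 0.05 for β-END(1-9). Krt1, a keratin of the suprabasal layers, had 6.75 with Met-ENK, 5.89 with β-END(1-9) and 5.77 in control, which put the Met-ENK array 0.99 above control at background level. In the same comparison Krt2, Lce1m and Kprp, also within the background range, differed by 0.00.

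Genes for the lipids of the cornified layer were measured for 30 of 37 listed symbols, and 15 lay above the background range on all arrays. With Met-ENK, 0 of 30 passed 1.5-fold against control, where 2.98% of all named genes were higher and 4.21% lower. With β-END(1-9) 0 were higher and 1 lower, against 2.64% and 1.97%. That gene was Pnpla1, which makes acylceramides, with 3.74 with Met-ENK, 3.23 with β-END(1-9) and 3.92 in control, at background level. The strongest signals were those of Elovl1, a fatty acid elongase, Psap, the precursor of the saposins, and Degs1, the desaturase that makes ceramide. Degs1 had 12.50 with Met-ENK, 12.58 with β-END(1-9) and 12.98 in control, differences of -0.48 and -0.40. Elovl1 differed from control by -0.26 and -0.09, and Psap by 0.03 with either peptide. The list medians were 0.00 for Met-ENK and -0.01 for β-END(1-9).

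Proteases and inhibitors of cornification and shedding were measured for 33 of 41 listed symbols, 18 of them above the background range. With Met-ENK 1 of 33 was at least 1.5-fold lower, Cst3, and 0 were higher, against 4.21% and 2.98% of all named genes. With β-END(1-9) the counts were 0 and 0, against 1.97% and 2.64%. Both medians were 0.00. Ctsb, Klk10 and Ctsl had the strongest signals, and Klk10, a kallikrein of the epidermis, had 13.43 with Met-ENK, 13.46 with β-END(1-9) and 13.43 in control. Cst3 is also counted among the cystatins above.

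Regulators of terminal differentiation were measured for 43 of 51 listed symbols, with 28 above the background range on all arrays. With Met-ENK, 3 were at least 1.5-fold lower than control and 0 higher, and with β-END(1-9) 1 was lower and 0 higher. The lower calls compare with 4.21% and 1.97% of all named genes, and the counts of 0 higher with 2.98% and 2.64%. Keap1, the repressor of the antioxidant factor NRF2, had 8.25 with Met-ENK, 9.30 with β-END(1-9) and 9.27 in control. Hes1, a target of Notch signalling, had 9.37 with Met-ENK, 9.94 with β-END(1-9) and 10.16 in control. The third, Cebpb, had 6.11 with Met-ENK, 6.28 with β-END(1-9) and 6.83 in control, within the background range. Hes1 (span 2.41 kb) lay in the shortest span quintile and Keap1 (9.49 kb) in the next. Of genes at or above the median signal, 16.6% in the shortest quintile were at least 1.5-fold lower with Met-ENK. In the next quintile 142 of 1509 were. Cebpb (1.43 kb) was also in the shortest quintile, but below the median signal. Klf4, a factor needed for the barrier in mice, had 7.91 with Met-ENK, 7.81 with β-END(1-9) and 8.40 in control, differences of -0.49 and -0.59. The β-END(1-9) difference was short of 1.5-fold with median centring (-0.57), quantile normalization (-0.50) and loess scaling (-0.54). Between the peptides, Keap1 (-1.04), Dlx3 (-0.72) and Casr (-0.64) were at least 1.5-fold lower with Met-ENK than with β-END(1-9), and 0 were higher. These are 3 and 0 of 43, against 3.05% and 2.51% of all named genes. Casr lay within the background range on all arrays, and Dlx3 exceeded it only on the β-END(1-9) array, with 6.98 with Met-ENK, 7.70 with β-END(1-9) and 7.21 in control. Jag1, Tp63 and Esrp1 had the strongest signals, and Tp63, the gene of the keratinocyte factor p63, had differences from control of 0.07 (Met-ENK) and -0.28 (β-END(1-9)). The list medians were 0.00 and -0.10, against 0.00 over all named genes with either peptide. Over genes at or above the median signal, as 31 of the 43 were, the medians were 0.00 and -0.03.

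**Figure D4:**
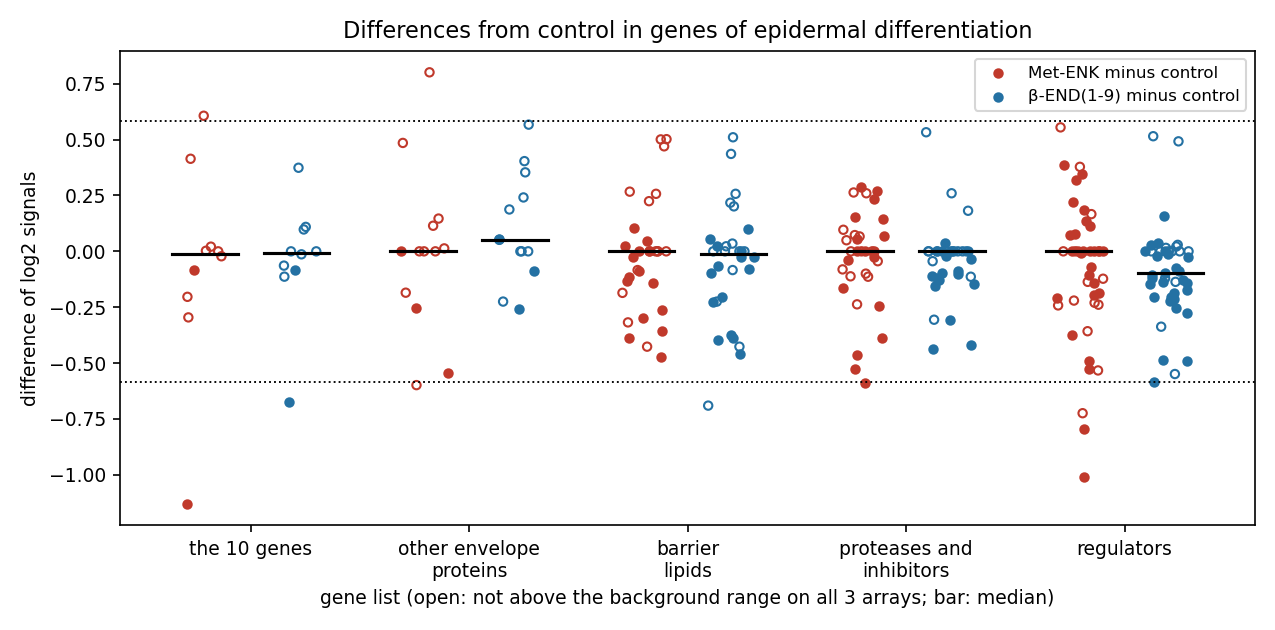
Differences of log2 signals from control for the measured genes of 5 lists, with Met-ENK (red) left of β-END(1-9) (blue); filled points lie above the background range on all 3 arrays, open points do not, bars are list medians and dotted lines mark 1.5-fold. The medians lie between -0.10 and 0.05, and Cst6 is the lowest point in the first list with both peptides.

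Ivl, Sprr1a and Sprr3 belong to the epidermal differentiation complex, a run of genes that includes S100 genes at its ends. Of 70 protein-coding genes from S100a10 to S100a13 in the RefSeq order, 24 were measured, and 5 lay above the background range on all arrays. All 5 are S100 genes: S100a11, S100a6, S100a10, S100a16 and S100a4. Of these, S100a16 (-0.84), S100a6 (-0.72) and S100a10 (-0.66) were past 1.5-fold lower with Met-ENK than in control. The same held for 6.02% of genes at or above the median signal. In the shortest span quintile, that of S100a6, 16.6% of such genes were lower. In the next quintile, that of S100a16 and S100a10, 142 of 1509 were lower. Their spans were 5.71 kb for S100a16, 1.57 kb for S100a6 and 8.65 kb for S100a10. With β-END(1-9), 0 of the 5 passed 1.5-fold against control. In that comparison 2.27% of genes at or above the median signal were lower and 0.559% higher. After quantile normalization the Met-ENK differences of S100a6 (-0.580) and S100a10 (-0.48) from control were short of 1.5-fold. The other 19 measured genes, the 3 named above included, stayed within the background range on every array. Ivl, Lce1f and S100a5 (0.74) were the genes past 1.5-fold higher with Met-ENK, 3 of 24. The shares were 2.98% of all named genes and 4.88% of those within the background range. S100a5, with the same signal on both peptide arrays, was the 1 gene past 1.5-fold higher with β-END(1-9), against 2.64% of all named genes.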

How the data were processed

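The members and gene lists were chosen with earlier results of these data known. For every probe set the authors deposited 1 log2 signal on each array. The submitters' processing notes name RMA, which corrects background, quantile-normalizes and summarises probes, and list the Transcriptome Analysis Console beside the Affymetrix Expression Console. The genome build, the annotation release and the software versions are not given in these sources. Groups came from the sample titles.

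Of 24834 probe sets, 1646 control probe sets were left out. The platform annotation named 15049 of 23188 transcript clusters, all 15049 with an Entrez identifier in RefSeq (GRCr8), standing for 15037 genes. Each of the 10 genes has 1 probe set. Where a gene had several (10 genes), the one with the highest mean was used. Differences of log2 signals were computed in Python 3.11.15 with pandas 2.3.3, without tests, because each group has 1 array. The number of arrays limits the precision. The expression filter was a mean log2 signal at or above the median of named genes, 6.41, which 7519 genes and 2 of the 10 passed. Counting was checked on simulated arrays with planted changes larger than any difference of the 10 genes and without exactly equal signals. It therefore does not show how well differences near 1.5-fold are called. Of the alternatives, only quantile normalization was run there, to see that it equalised the arrays.

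Genes outside the 10 were named by a rule: list members past 1.5-fold (at most 8 per list and comparison), the 3 strongest per list, and a set of protease and keratin genes. Exceptions are stated. Alternatives were median centring, quantile normalization, loess scaling (span 0.3), removal of the span trend, the mean over probe sets, the filter and a 2-fold threshold. The span trend was a line fitted over all named genes.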

Additional observations from a re-analysis of the deposited data

How the results depend on the processing

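With quantile normalization, and with loess scaling, 1 of the 10 genes instead of 2 passed 1.5-fold with Met-ENK against control, since Ivl was 0.55 and 0.58 higher. The same normalization left 0 genes in place of 1 with β-END(1-9), since Cst6 was then -0.576, just short of the threshold. Across the 5 alternatives of scaling, span and probe set, Cst6 ranged from -1.14 to -1.09 with Met-ENK and from -0.69 to -0.58 with β-END(1-9). At 2-fold, 1 gene with Met-ENK (Cst6), 0 with β-END(1-9) and 0 between the peptides remained. The share of all named genes past 2-fold was not computed. For Met-ENK minus control, Cst6 ranked 44 from the lowest among the 15037 named genes. Among the 2 genes passing the expression filter the counts were 1, 1 and 0, and the medians were -0.61 with Met-ENK against control, -0.38 with β-END(1-9) against control and -0.23 between the peptides, by construction means of Cst6 and Tgm1. In total, 50 single-gene values per comparison were recomputed. All moved by less than 0.1, with 2, 1 and 0 calls changed, and 0 changed sign among called values. The mean over probe sets could not move them, because each of the 10 genes has 1 probe set. Median centring shifts every gene of a comparison alike. For 43 other named genes, 645 values were recomputed, of which 29 lay on the other side of 1.5-fold. Of the differences past 1.5-fold as deposited, 0 changed sign. Some smaller differences did, such as Ctsb for Met-ENK minus control, from -0.04 to 0.11 under quantile normalization. A background limit set at the median of the background probe sets or of the named genes left 2 genes above it. The median of named genes moved by at most 0.02. Over the 7519 genes passing the filter, quantile normalization gave 90 higher and 340 lower with Met-ENK, in place of 52 and 453, and 62 and 114 with β-END(1-9), in place of 42 and 171. No paired analysis was possible because each group has 1 array. Leaving out a replicate was not possible for the same reason. Signals near background limit what can be read for 8 of the 10 genes.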
